A study of Oryza sativa Japonica Group with 6 samples.

Results

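In rice oxylipin synthesis, 10 gene loci, measured with 27 probes, were described in leaf blades of a linalool-producing transgenic line and of wild type. They were chosen by locus identifier from a list, out of 28855 loci and 42429 probes on the array. The list was made with earlier results of these data known. The list held 3 lipoxygenases (LOX), 2 allene oxide synthases (AOS), 1 allene oxide cyclase (AOC) and 1 hydroperoxide lyase (HPL). It also held 3 loci of the oxophytodienoic acid reductase (OPR) family. RNA came from fourth-leaf blades of untreated Nipponbare plants at the 4-leaf stage, grown at 25 °C, and each of 3 biological replicates per group pooled at least 3 plants. The transgenic group is Line 13, a single transgenic line that overexpresses linalool synthase and accumulates linalool, and the control group is wild type. The sources used here do not name the promoter of the transgene, and 1 line cannot separate the transgene from other changes in that line.

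Oxylipins are oxygenated fatty acids. LOX enzymes add oxygen to polyunsaturated fatty acids such as linolenic acid in the chloroplast, and the resulting hydroperoxide is shared by 2 branches. In the jasmonate branch, AOS and AOC make oxophytodienoic acid, OPR reduces it, and beta-oxidation shortens it to jasmonic acid, the hormone of wound and herbivore responses. In the green-leaf-volatile branch, HPL cleaves the hydroperoxide to short aldehydes, the source of the smell of cut grass. Jasmonate acts as its isoleucine conjugate, which lets the receptor COI1 bind JAZ proteins for destruction and so frees transcription factors such as MYC2. Common names and functions given here are general knowledge of these loci and were not checked against an annotation.

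Signals are log2 values of the processed spot intensity minus the log2 of the 75th percentile of the non-control spots of the same array, so that 0 is the level of that percentile. A locus was represented by its brightest tested probe, and levels of different probes are not set against each other. Differences are Line 13 minus wild type on the log2 scale, with the standard error (SE) of limma, fitted over 22232 loci, and a locus was called where its Benjamini-Hochberg adjusted p was under 0.05. The 10 loci were all well above background on all 6 arrays, with no saturated spot and no spot with an outlier flag among their 27 probes.

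The 75th percentile was 325, 1559 and 932 on the arrays labelled Line 13 and 720, 883 and 959 on those labelled wild type. Precision is limited by having 3 arrays per group. All arrays labelled Line 13 were on 1 slide with 1 scan, and all arrays labelled wild type on another, so slide and scan cannot be told apart from the group. The linalool synthase locus Os02g0121700 was 10.8-fold lower on the arrays labelled Line 13 (-3.43, SE 0.90, limma adjusted p = 0.0185), against the label of an overexpressing line. Its 1 probe checks nothing if it lies outside the introduced sequence, so every direction below is one between labels. All 7 leaf markers (Rubisco small subunit and light-harvesting genes) were well above background on all 6 arrays, and their summed signal was 495 to 1066 times the 75th percentile on the arrays labelled Line 13 and 1061 to 1338 times on those labelled wild type. All 4 cell division markers were well above background on every array labelled Line 13 and 1 on every array labelled wild type, with summed signals of 5.92 to 10.6 and of 0.492 to 0.765. Both root markers were above background on every array labelled Line 13, where they summed to 24.5 to 29.5, and on no array labelled wild type, where they summed to 0.00743 to 0.0145. The Line 13 sum is mostly that of Os02g0662100, with log2 signals of 4.60 to 4.88 there. The other marker, Os02g0662000, was dim, with -5.96 to -1.88. Of 2 shoot apex markers, 1 was above background throughout each group, with sums of 0.0486 to 0.815 and 0.0285 to 0.0788, and of 6 floral organ markers 4 were in each group, with sums of 0.150 to 0.312 and 0.538 to 0.640. The part of these cell types in the oxylipin differences was not tested, and in such bulk samples fewer cells of a type and less RNA per cell cannot be told apart.

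The 3 LOX loci among the 10, the allene oxide synthase gene AOS2 and the lyase gene HPL3 fell on the arrays labelled Line 13. The other allene oxide synthase gene, AOS1, rose, and neither the cyclase nor any of the 3 reductases passed the test. Among these reductases OPR7 is the 1 known to act in jasmonate synthesis. Of the 10 loci, 1 was called higher, where 26.8% of all loci tested were, and 5 were called lower, where 28% were. The 6 calls in all stand beside 54.7% of all loci called in either direction, a share so high that the number of calls alone says little about these genes. The median difference of the 10 was -1.19, against -0.07 over all loci tested. As the 10 were listed with earlier results of these data known, this gap is a description and no test. In 8 of the 10 the groups did not overlap, and so it was for 68.5% of all loci.

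**Figure D1:**
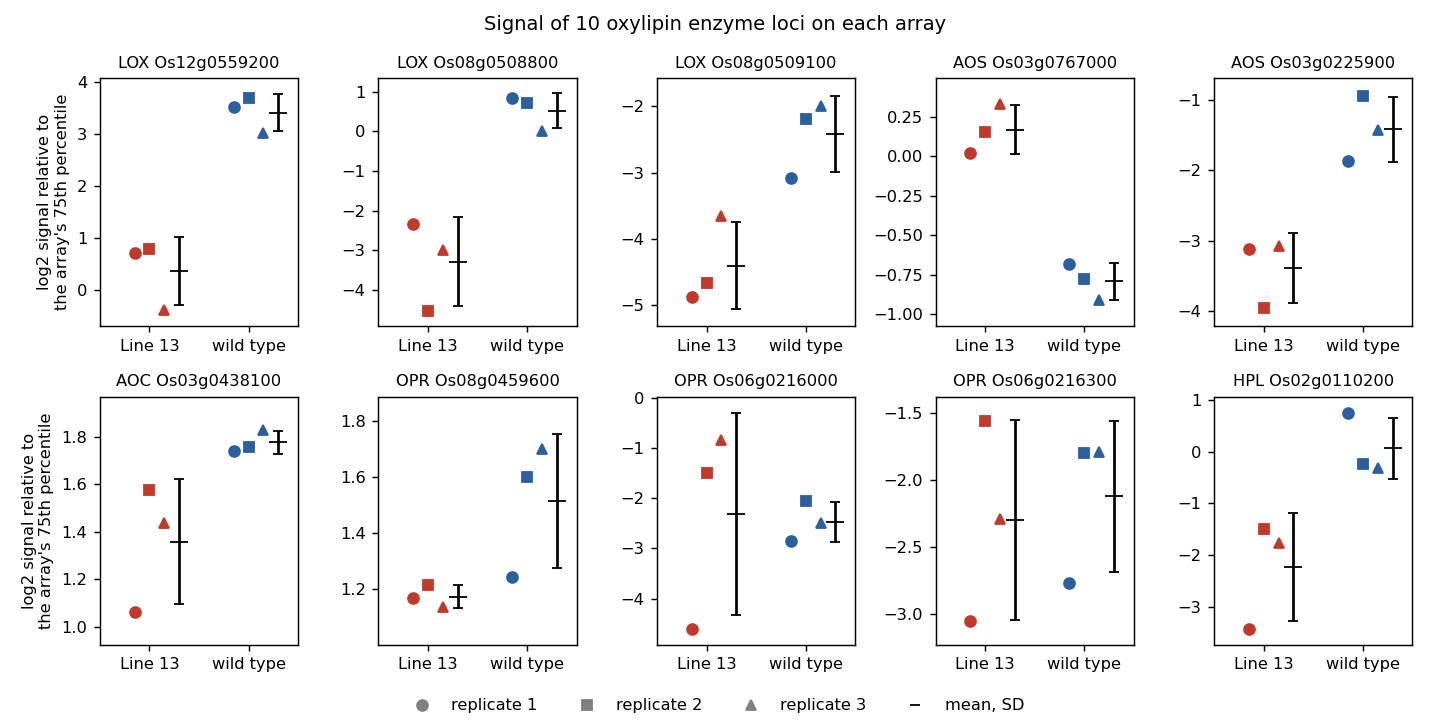
Signal of each of the 10 loci on each array, in log2 relative to the 75th percentile of that array, with arrays labelled Line 13 on the left and wild type on the right of each panel, and bars for the mean and SD (n = 3). The 3 LOX panels, AOS Os03g0225900 and HPL show Line 13 below wild type without overlap, AOS Os03g0767000 shows the opposite, and the 2 OPR panels of chromosome 6 overlap.

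Among the lipoxygenases, Os12g0559200, known as RCI-1, a chloroplast enzyme whose transcript is induced by chemical activators of resistance, had signals of 0.70, 0.79 and -0.40 on Line 13 replicates 1 to 3. On wild-type replicates 1 to 3 it had 3.52, 3.70 and 3.01. Every array labelled Line 13 lay far below every wild-type array, and the locus was 8.27-fold lower (-3.05, SE 0.38, limma adjusted p = 0.000976). Only 2.80% of all loci had a more negative difference. Its other probes went further, with differences of -3.72 (SE 0.48) and, for the probe of the second transcript model, -4.44 (SE 0.49), so the size differed with the probe while the direction did not.

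The LOX locus Os08g0508800, known as CM-LOX1 or HI-LOX and linked to the response to chewing insects, had signals of -2.34, -4.53 and -2.99 on Line 13 replicates 1 to 3. The wild-type signals were 0.83, 0.71 and 0.0158. It fell by 3.80 (SE 0.57, limma adjusted p = 0.00216), or 14.0-fold, and 1.03% of all loci had a more negative difference. Line 13 replicate 2 was the lowest array for this gene, although the same array was the highest of its group for RCI-1. Without that array the difference was -3.18 (limma adjusted p = 0.00218), a smaller fall than that of RCI-1 (-3.26), and with array weights it was -4.95 (limma adjusted p = 1.14e-05). A second probe gave nearly the same difference, -3.78 (SE 0.68).

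Its neighbour by locus number, Os08g0509100, known as CM-LOX2, had signals of -4.88, -4.67 and -3.66 on the arrays labelled Line 13 and -3.08, -2.19 and -1.99 on those labelled wild type. It was 3.96-fold lower (-1.99, SE 0.43, limma adjusted p = 0.00881), without overlap. The gene was dim: a second probe, which fell by 2.97 (SE 0.36), was above background on 2 of 3 arrays labelled Line 13, and the third probe on none of the 6. With normexp background correction of the median spot signals the difference was -0.91 with limma adjusted p = 0.0848, and the gene was not called. Filters on dim probes could not move its difference, because its brightest probe was above background on all 6 arrays. Only the other loci in the fit changed, and the gene stayed called at -1.99. The limma adjusted p was 0.0143 with no filter and 0.00869 with a filter that asked for all 6 arrays above background.

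The allene oxide synthase AOS1, Os03g0767000, whose loss is known to speed the change from juvenile to adult leaves in rice, had signals of 0.0235, 0.15 and 0.33 on Line 13 replicates 1 to 3, against -0.68, -0.78 and -0.91 on wild-type replicates 1 to 3. It was 1.95-fold higher without overlap (0.96, SE 0.18, limma adjusted p = 0.00552), and 25.2% of all loci had a more positive difference. The rise is one relative to each array: before scaling, the processed intensity was 331, 1734 and 1173 on the arrays labelled Line 13 and 448, 514 and 509 on those labelled wild type, where the groups overlap and Line 13 replicate 1, the array with the lowest 75th percentile, is the lowest of all. Scaling each array to its median, which moved the median of all loci by -0.31, gave a rise of 0.65 with limma adjusted p = 0.0259. Relative to the median of all loci the rise was 1.03 under both scalings, which differ only by 1 constant per array. With quantile normalization it was 1.19 relative to that median. Its second probe rose by 1.04 (SE 0.19).

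AOS2, Os03g0225900, encodes an enzyme of the same reaction and is known as a pathogen- and wound-inducible gene. Its signals were -3.12, -3.96 and -3.08 on the arrays labelled Line 13 and -1.87, -0.95 and -1.43 on those labelled wild type. Again the groups did not overlap, and the locus was 3.92-fold lower (-1.97, SE 0.35, limma adjusted p = 0.00407). All 4 probes fell, with differences of -2.18 to -1.97. Over the alternatives of processing and of arrays left out, the difference of AOS2 was -2.76 (with array weights) to -1.40 (with normexp), called in each, with limma adjusted p of 5.22e-05 to 0.0180.

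Because a ratio of 2 loci on the same array does not depend on a constant that scales the array, 5 pairs were compared in this way. Such a ratio can still change with background correction or quantile normalization, under which the ratios were not computed. Relative to its wild-type mean, the log2 ratio of AOS2 over AOS1 was -2.52, -3.49 and -2.79 on the arrays labelled Line 13, and within -0.56 to 0.46 on those labelled wild type. The mean change was -2.93, and over the 8 combinations of their probes it was -3.22 to -2.93, so its direction did not depend on the probes used. An exact permutation test (two-sided) gave p = 0.1, which is the lowest value possible with 3 arrays per group, and p = 0.25 adjusted over the 5 pairs.

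The cyclase AOC, Os03g0438100, a single gene in rice that sets the handedness of oxophytodienoic acid, had signals of 1.06, 1.57 and 1.44 on the arrays labelled Line 13 and 1.74, 1.76 and 1.83 on those labelled wild type. The difference did not pass the test (-0.42, SE 0.20, 95% confidence interval -0.90 to 0.07, limma adjusted p = 0.124), although the groups did not overlap. Its 3 probes disagreed. The brightest, from the second transcript model, lay below wild type on every Line 13 array. Another, from the first model, lay above it on every one, with a difference of 0.18 (SE 0.17, limma adjusted p = 0.392), and the remaining probe of that model had overlapping groups and a difference of -0.0286 (SE 0.17).

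OPR7, Os08g0459600, the reductase that acts in jasmonate synthesis in rice, had signals of 1.17, 1.21 and 1.13 on the arrays labelled Line 13 and 1.24, 1.60 and 1.70 on those labelled wild type. All Line 13 values lay below all wild-type values, but wild-type replicate 1 came close to them. The difference was -0.34 (SE 0.20, 95% confidence interval -0.81 to 0.13, limma adjusted p = 0.179), and its second probe gave -0.29 (SE 0.18). With array medians as the scale AOC and OPR7 were both called lower, by 0.73 (adjusted p = 0.0183) and 0.65 (adjusted p = 0.0329) in limma. Relative to the median of all loci their differences were -0.35 and -0.27 under both scalings, which differ only by 1 constant per array. With quantile normalization these were -0.04 and 0.02 relative to that median, and neither locus was called. With array weights OPR7 was also called lower, by 0.38 (limma adjusted p = 0.0132).

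The remaining reductase loci lie close together by locus number on chromosome 6 and belong to the OPR group that prefers other substrates than the jasmonate precursor. Os06g0216000 had signals of -4.60, -1.49 and -0.84 on Line 13 replicates 1 to 3, against -2.85, -2.05 and -2.50 on wild-type replicates 1 to 3. Line 13 replicate 1 was the lowest of all 6 arrays and the other two of its group were the highest, so the mean difference of 0.16 (SE 0.95, 95% confidence interval -2.12 to 2.44, limma adjusted p = 0.899) covers a range of 3.76 within Line 13. Without Line 13 replicate 1, whose signals correlated least with the rest of its group, the locus was called higher by 1.30 (SE 0.32, limma adjusted p = 0.0169).

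Os06g0216300, known as OPR1, had signals of -3.05, -1.56 and -2.29 on the arrays labelled Line 13 and -2.77, -1.80 and -1.79 on those labelled wild type. The groups overlapped and the difference was -0.18 (SE 0.45, 95% confidence interval -1.27 to 0.91, limma adjusted p = 0.756). Its 4 tested probes gave -0.19 to -0.013, and the fifth was above background on 2 arrays labelled Line 13 and on no wild-type array. The brightest probe carries the name of the neighbouring locus Os06g0216200 as well. OPR genes of this cluster resemble each other, and whether a probe also binds a neighbour's transcript was not tested. The within-array ratio of Os06g0216000 over Os06g0216300 changed by 0.34, with overlapping groups (exact two-sided permutation p = 0.7).

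HPL3, Os02g0110200, the lyase that makes green leaf volatiles in rice leaves, had signals of -3.43, -1.49 and -1.78 on Line 13 replicates 1 to 3. On wild-type replicates 1 to 3 the signals were 0.75, -0.235 and -0.32. The groups did not overlap, and HPL3 was 4.92-fold lower (-2.30, SE 0.57, limma adjusted p = 0.0148). Its second probe, above background on 2 of 3 arrays labelled Line 13, fell by 2.78 (SE 0.84, limma adjusted p = 0.0309). Without wild-type replicate 1, the highest array for this gene, the difference was -1.96 with limma adjusted p = 0.0519, and the locus was not called. Without Line 13 replicate 1, the lowest array, it was -1.70 (limma adjusted p = 0.0112). With normexp background correction it was also -1.70 (limma adjusted p = 0.00463), and with array weights -1.39 (limma adjusted p = 0.00129).

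Set against the allene oxide synthases of the jasmonate branch, HPL3 fell where AOS2 fell and AOS1 rose. The within-array ratio of HPL3 over AOS1, relative to its wild-type mean, was -4.31, -2.51 and -2.97 on the arrays labelled Line 13 and within -0.31 to 0.58 on those labelled wild type, a mean change of -3.26 (exact two-sided permutation p = 0.1, p = 0.25 adjusted over the 5 pairs). The ratio of HPL3 over AOS2 was -1.79, 0.98 and -0.18 on the arrays labelled Line 13 and within -0.77 to 1.14 on those labelled wild type. These overlapped, the mean change was -0.33, and the exact two-sided permutation p was 0.9. The SD of this ratio was 1.39 within Line 13. With 3 arrays per group the permutation p cannot be under 0.1, so the test could call no change of any size. The ratio of the neighbouring lipoxygenases, Os08g0508800 over Os08g0509100, changed by -1.82 with overlapping groups (exact two-sided permutation p = 0.2). Over the 4 combinations of their tested probes this change was -1.82 to -0.81, so its size depended on the probes used.

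**Figure D2:**
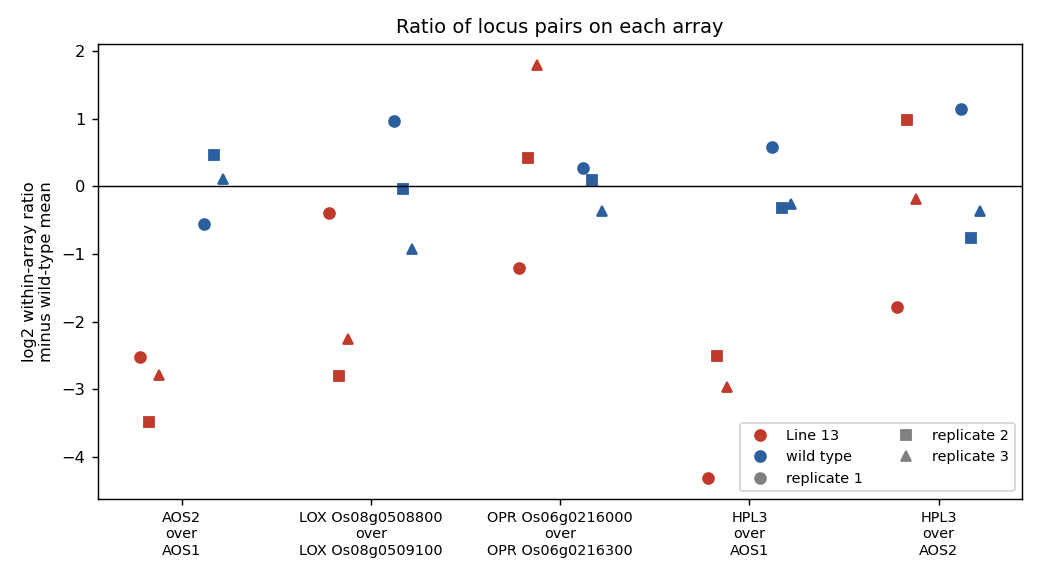
Within-array log2 ratio of 5 pairs of loci minus the wild-type mean of that ratio, on the arrays labelled Line 13 (left of each pair) and wild type (right), with a marker for each replicate. AOS2 over AOS1 and HPL3 over AOS1 lie below wild type on all 3 arrays labelled Line 13, and the other 3 pairs overlap.

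Over all probes, 25 of 27 could be tested in a fit across 33369 probes. Of these, 13 were called lower, 2 higher and 10 neither, where 28% and 26.1% of all probes were called lower and higher, 54.1% in all. At each locus with a call, every tested probe was called in the same direction. Probes of 1 locus share its transcripts and are not independent replicates.

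**Figure D3:**
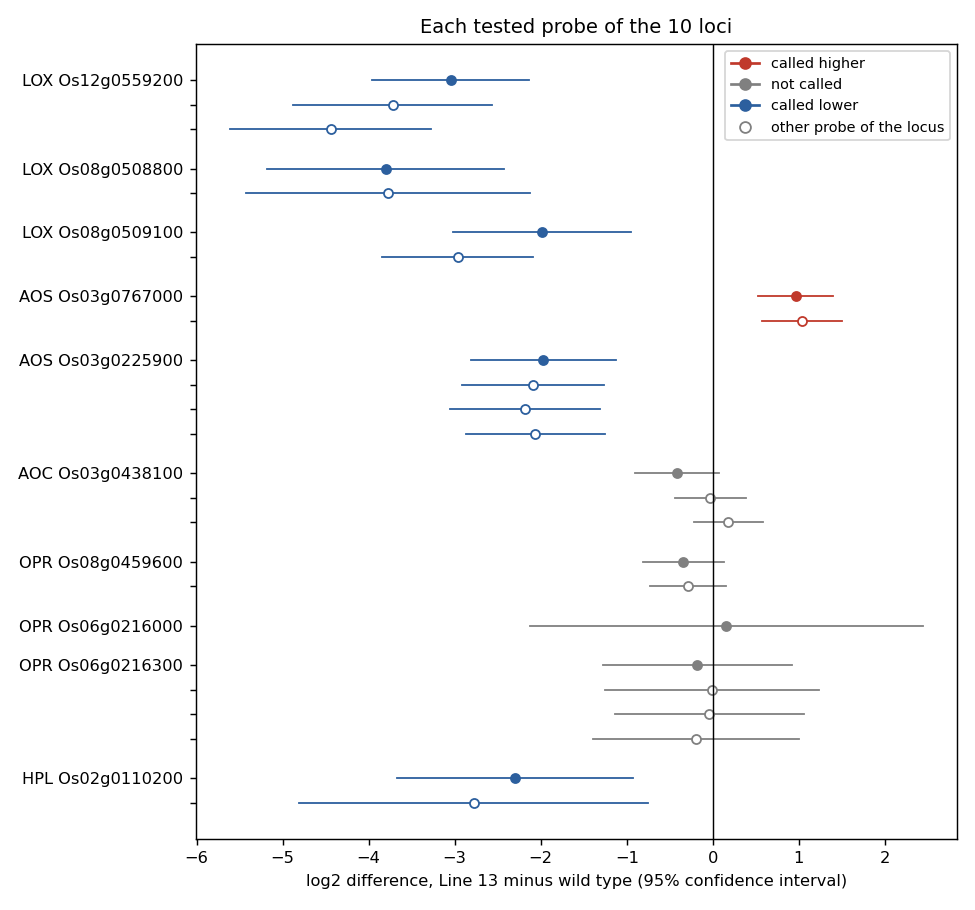
Difference between Line 13 and wild type, in log2, with the 95% confidence interval, for each of the 25 tested probes, with the brightest probe of a locus filled. The probes of the LOX loci, AOS Os03g0225900 and HPL lie left of 0 and those of AOS Os03g0767000 right of it, whereas the intervals of AOC and OPR probes include 0.

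For 8 of the 10 loci the range over 3 arrays was wider in Line 13 than in wild type. The median range was 1.20 in Line 13 and 0.80 in wild type, and over all loci tested it was 0.81 in Line 13 and 0.34 in wild type. Line 13 replicate 1 was the lowest of its group for 6 loci, AOS1, AOC, both chromosome 6 reductases, CM-LOX2 and HPL3, and the highest for 1, Os08g0508800. By the mean absolute difference over the 6 arrays of signals centred on their own mean, AOC and OPR7 were the most alike pair (0.163), AOS2 and CM-LOX2 were each other's nearest (0.392), and so were the lipoxygenases RCI-1 and Os08g0508800 (0.682). AOS1 was nearest to OPR7 (0.652), and HPL3 nearest to CM-LOX2 (0.783). Os06g0216000 was nearest to Os06g0216300 (0.658), which was itself nearest to AOC (0.357). The measure is not scaled to the size of change, so loci that change little lie close to each other. AOC and OPR7 were both not called, and the AOC values are those of its brightest probe, with which its other probes disagreed.

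Other loci of the pathway went both ways as well. Of 41 such loci, 31 were tested, and 4 were called higher and 9 lower, with a median difference of -0.47. Over all loci tested 26.8% were called higher and 28% lower, 54.7% in all, so the lower calls of this list were near that share and its calls in all were below it. Without Line 13 replicate 1 the number called higher was 9 of 35 tested, where 7085 of all 23657 loci tested were called higher in the same setting. The rise in this number is therefore no result about the pathway. Of 7 further lipoxygenase loci 5 were tested: Os02g0194700 was 30.6-fold lower (-4.94, SE 0.89, limma adjusted p = 0.00431), with 1.26 as its highest signal in Line 13 and 3.73 as its lowest in wild type. Os05g0304600 fell by 1.77 (SE 0.34). Os03g0700400 and Os03g0700700, of the chromosome 3 group of lipoxygenases, which oxygenate another position of the fatty acid, were 2.15-fold (SE 0.19 on the log2 scale) and 2.49-fold (SE 0.25) higher.

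Of 9 further OPR loci, 6 were tested, 2 fell and none rose, where 28% of all loci tested were called lower and 26.8% higher. Os01g0369900 fell by 3.76 (SE 0.67, limma adjusted p = 0.00417) and Os04g0443700 by 1.29 (SE 0.34). Of 4 beta-oxidation loci the thiolase locus Os02g0817700 fell by 0.91 (SE 0.22) and the other three were not called. JAR1, Os05g0586200, which joins jasmonic acid to isoleucine, fell by 1.30 (SE 0.26, limma adjusted p = 0.00694), and JAR2 was too dim to be tested, as were 2 further loci of the AOS and HPL family, the lipase locus EG1 and the turnover gene CYP94C2b.

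On the response side, the receptor gene COI1b, Os05g0449500, fell by 1.15 (SE 0.23, limma adjusted p = 0.00700). Its relative COI1a had a difference of -0.48 (SE 0.19, limma adjusted p = 0.0719), and MYC2 had -0.65 (SE 0.26, limma adjusted p = 0.0714). JAZ repressor genes, which jasmonate itself induces, went both ways. Of 12 tested, 2 rose and 2 fell, with a median of 0.16. Over all loci tested 26.8% were called higher and 28% lower, so calls in both directions are not particular to this list. Os09g0439200 rose by 1.74 (SE 0.40) and Os03g0180900 by 1.11 (SE 0.31), while Os09g0401300 fell by 1.47 (SE 0.29) and Os03g0402800 by 1.22 (SE 0.25).

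**Figure D4:**
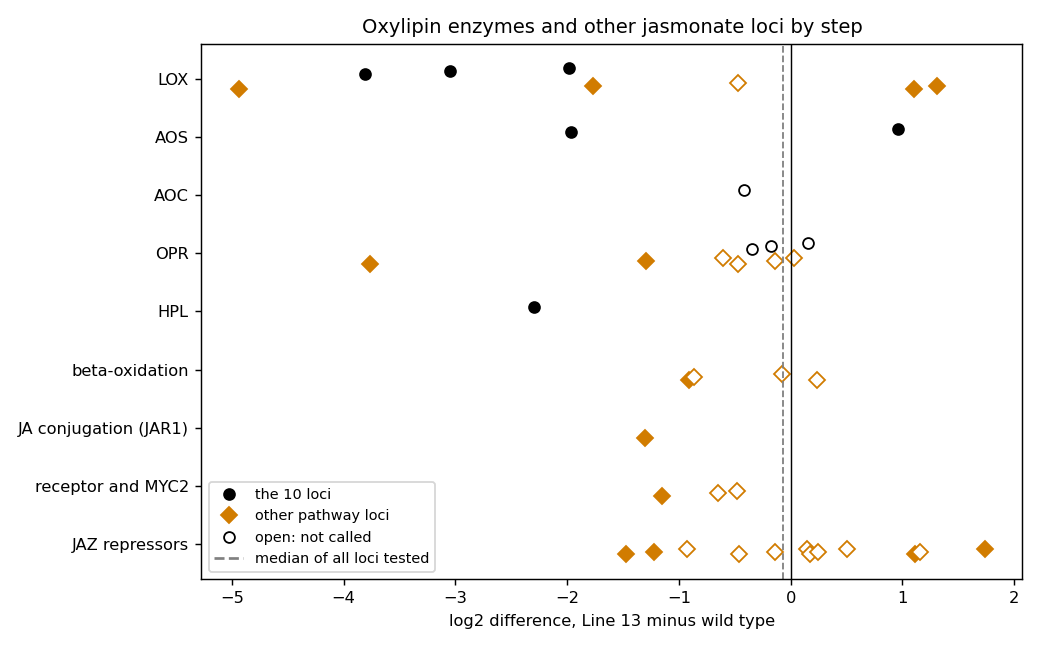
Difference between Line 13 and wild type, in log2, for the 10 loci (circles) and the 31 other tested pathway loci (diamonds), by step from LOX to JAZ repressors, with open symbols for loci not called and a dashed line at the median of all loci, -0.07. Lipoxygenases span from -4.94 to 1.31, and the cyclase and reductases of the 10 loci lie near 0.

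Across 17 alternatives of scaling, background, filter, test and arrays left out, RCI-1, Os08g0508800 and AOS2 stayed called lower and AOS1 called higher in all 17. CM-LOX2 and HPL3 were called lower in 16 each, with the exceptions named above. AOC was called lower in 1, OPR7 lower in 2, Os06g0216000 higher in 1 and Os06g0216300 in 0. The adjusted p of limma ranged over these alternatives from 3.81e-05 to 0.00623 for RCI-1, from 1.14e-05 to 0.0116 for Os08g0508800, from 6.88e-05 to 0.0331 for AOS1, from 0.000109 to 0.0848 for CM-LOX2 and from 0.00129 to 0.0519 for HPL3. It ranged from 0.0183 to 0.689 for AOC, from 0.0132 to 0.425 for OPR7 and from 0.0169 to 0.984 for Os06g0216000. Several of the 17 could not move these differences, so the counts overstate how many checks a locus passed. The authors' value table differs by 1 constant per array, which scaling to the 75th percentile removes. Keeping outlier flags or changing the filter on dim probes left each difference unchanged. Calls could then move only through the other loci in the fit. A replicate block or intensity trend changed the SE and not the difference.

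**Figure D5:**
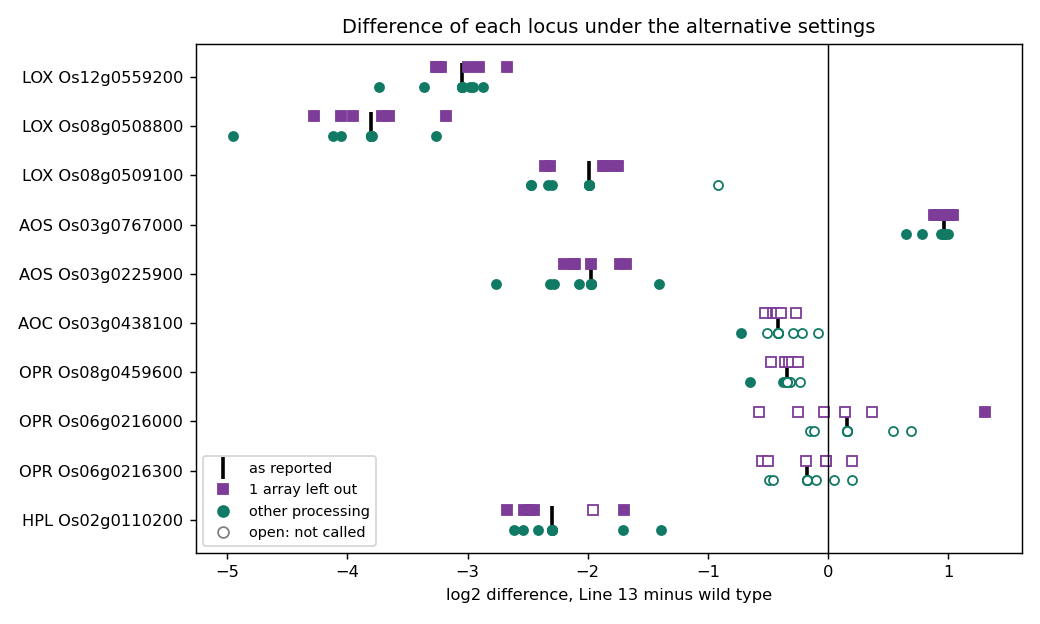
Difference between Line 13 and wild type, in log2, for each of the 10 loci as reported (bar), with 1 array left out (squares) and under other processing (circles), with open symbols where a locus was not called. AOS1, Os03g0767000, stays between 0.65 and 1.04, Os08g0508800 between -4.95 and -3.18, and the chromosome 6 reductases fall on both sides of 0.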

How the data were processed

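Per the labels' protocols, Cy3-labelled cRNA from 100 ng of RNA was hybridised to 1-colour rice oligonucleotide arrays (17 h, 65 °C). The deposited intensity was processed with Agilent Feature Extraction 10.10.1.1 without scaling between arrays, per the file headers. In the authors' deposited value table this intensity is multiplied by 1 constant per array (1.61 to 7.66), whose choice the sources used here do not state.

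Repeated spots were averaged, and control spots, outlier flags and 48 no-gene probes were dropped. Testing required that at least 50% of a probe's spots were well above background on all 3 arrays of a group. Log2 values were fitted with limma 3.58.1 (lmFit, eBayes, 2 groups, no block) in R 4.3.3 and plotted with matplotlib 3.10.9. The fitting code was run on simulated data in which few probes changed, unlike these data, so that run checks the code only. Single ratios had exact permutation tests. Loci came from the transcript names in the files, or else the probe names. All 10 loci are named, and of the called other pathway loci at most 12, by smallest unadjusted p, with Os03g0180900, JAR2, COI1a, MYC2, EG1 and CYP94C2b chosen after values were seen. The members and lists were chosen with earlier results of these data known. Background correction was planned on mean spot signals and was run on median ones, an alternative chosen after seeing the data.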

Additional observations from a re-analysis of the deposited data

How the results depend on the processing

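Replicate numbers are shared between groups, and arrays of the same number deviated together little over all loci (correlations of 0.108, -0.0253 and -0.00476). Only Line 13 replicate 1 deviated most like the wild-type array of its own number. These values cannot tell whether the numbers mark a pairing. With a replicate block, 5512 loci were called higher and 5388 lower, against 5950 and 6222, and 1 and 5 of the 10 loci. The block lowered the SE of some of the 10 loci (RCI-1, from 0.38 to 0.24) and raised that of others (AOS1, from 0.18 to 0.23). When 1 array was left out, 4700 to 7085 of all loci were called higher and 4066 (without wild-type replicate 2) to 7509 lower, 1 to 2 of the 10 higher and 4 to 5 lower, and 3 to 9 of the other pathway loci higher and 7 to 12 lower. Array medians as the scale gave 16 lower of 31 tested pathway loci, where 8324 of all 22232 loci tested were lower. Array weights gave 18 of 31, where 9675 of 22232 were lower, so lower calls rose over all loci too. Requiring all 6 arrays to be well above background left 3794 loci called higher. Of all calls 48.9% were higher, against 36.0% with array medians.

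The sign of Os06g0216000 was not stable: -0.15 with array medians, -0.12 with quantile normalization, and, with 1 array left out, from -0.58 to 1.30 (-0.25 without Line 13 replicate 2, -0.58 without replicate 3 and -0.0339 without wild-type replicate 1). Os06g0216300 had 0.0441 with normexp, 0.20 with array weights and -0.55 to 0.20 with 1 array left out, and 1 AOC probe had 0.18. Of these only the 1.30, without Line 13 replicate 1, was called, and the cause was not tested. Of the 27 probes, 25 were bright enough to be tested.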
